A study of Danio rerio with 3 samples.

Results

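The oligos described here come from a shield-stage zebrafish library and carry no gene symbol on the array. They are printed oligonucleotides whose symbol cell (headed Cytoband in the spot tables) is blank and whose title contains the word shield, with a plate position and a clone identifier given. The rule gave 1190 spots, or 1188 distinct oligos, of 33719 oligos on the array that have a plate position and an identifier. All 1190 spots whose title names the shield met it. The Compugen set holds 1185 of them, the MWG set 2 and the Operon set 1. Nearly all titles name an expressed sequence tag (EST, a single read of a cDNA clone) from a library made of whole embryos at the shield stage, so the clones sample the whole early gastrula and not the shield alone. One title instead calls its sequence an embryonic shield mRNA.

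The shield is the thickening on the dorsal side of the zebrafish gastrula that acts as the organizer, the tissue that patterns the body axis. Nodal signals at the margin of the blastoderm are needed to form it, and FoxH1 is a forkhead transcription factor that binds DNA with Smad proteins when Nodal receptors are active. Embryos reach the shield stage soon after 40% epiboly. Transcripts present in a shield-stage library include maternal messages that last into gastrulation as well as zygotic ones.

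The study compared FoxH1 morphants, that is 50 pooled embryos that had received a FoxH1 morpholino, with control morphants, 50 pooled embryos that had received a control morpholino, on 3 two-colour arrays. All were at 40% epiboly. Morpholinos are antisense molecules that act on translation or splicing and need not lower the message they target, and pooling hides differences between embryos. The morphant pool was labelled with Cy3 for arrays 1 and 2, whereas array 3 was a dye swap with the morphant pool in Cy5. The design text calls the 3 repeats independent, and the arrays are the replicates (n = 3), whose small number sets the precision throughout.

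Which way array 3 runs was settled partly from the data, after they had been seen, so counts, group medians, library comparisons and named members are also given with its sign turned. Where single arrays are listed, turning reverses the sign of the value of array 3. The labels fix the dyes but not which pool the red column of array 3 holds. Local background was higher in red than in green at 94.2% of array 3's spots, against 5.46% on array 1 and 5.04% on array 2. Green-over-red ratios of 132 random negative control spots correlated at r = 0.93 between arrays 1 and 2, and at r = -0.73 between their mean and array 3. For 35 Arabidopsis control spots these values were 0.66 and -0.89. Both are descriptions across spots, which are not independent. Red was therefore read as the control pool on every array, and all ratios are log2 of morphant over control. Over all 26208 tested oligos the ratios correlated at r = 0.82 between arrays 1 and 2, at -0.35 between arrays 1 and 3, and at -0.46 between arrays 2 and 3.

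The shield-library oligos were bright. Of the 1188, 1098 (92.4%) were tested, which needed a usable spot on all 3 arrays, against 10764 of 14992 (71.8%) other unnamed Compugen oligos. Among the 90 not tested, 28 were usable on 0 arrays, 25 on 1 and 37 on 2. Spots of poor quality made up 4.55%, 4.97% and 4.88% of the members on arrays 1, 2 and 3, against 19.5%, 20.1% and 16.8% of the other Compugen oligos. Median intensities of the tested members were 433.5, 257.9 and 801.3 in the morphant column and 1421, 847.1 and 316.4 in the control column. The median log2 intensity, averaged over both columns, exceeded that of the other Compugen oligos by 1.06, 0.82 and 0.74 on arrays 1, 2 and 3 (mean 0.87 ± 0.17, SD, n = 3 arrays). This difference had 1 sign on all arrays, and the exact two-sided sign-flip test over 3 arrays gave p = 0.25, the smallest it allows.

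No shield-library oligo passed the test of FoxH1 morphants against control morphants. After Benjamini-Hochberg adjustment of limma's test over all tested oligos, 0 of 1098 members were under 0.05, with a lowest adjusted p of 0.282, and 0.0% of all 26208 oligos were. A one-sample test without moderation also called 0. The members' values are therefore given as measurements that did not pass. At an unadjusted limma p under 0.05 there were 217 members (19.8%), against 11.3% of all tested oligos. Of these, 161 (14.7%) were lower in morphants, against a background of 5.29%, and 56 (5.10%) were higher, against 6.05%. The excess over the background was thus on the lower side in this reading. There were 189 members with array 3 turned (17.2%, background 26.6%), 124 lower (11.3%, background 10.5%, and 14.3% of the other unnamed Compugen oligos) and 65 higher (5.92%, background 16.1%), so the members then fell short of the background on the higher side.

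Signs over the arrays were counted in the same way. Members below 0 on all 3 arrays numbered 354 (32.2%), against 17.6% of all oligos and 15.6% of the other unnamed Compugen oligos. Above 0 on all 3 were 170 (15.5%), against 17.0% and 17.8%. Members lower by more than 1 log2 unit on every array numbered 43 (3.92%), against a background of 1.11%, and members higher by that much numbered 9 (0.820%), against 0.862%. The first share lay above its background and the second near it. With array 3 turned, 322 members (29.3%) were lower on all 3 arrays, against 24.8% of all oligos and 29.7% of the other Compugen oligos, and 126 (11.5%) were higher, against 24.8% and 21.1%. In that reading 41 members (3.73%) passed an adjusted p under 0.05 in limma, against 9.52% of all oligos. Of these members 15 were lower and 26 higher, where 1.31% and 8.21% of all oligos were. Past 1 log2 unit on all 3 arrays, 12 were then lower (1.09%, background 1.25%) and 18 higher (1.64%, background 7.25%). Without array 3, 269 members (24.5%) passed, against 22.7%. Of these, 195 (17.8%) were lower, against a background of 8.16%, and 74 (6.74%) were higher, against 14.5%. Without array 3 all remaining arrays carry the dyes one way round, so a dye effect of an oligo has 1 sign on each. With a dye term in limma, 0 members passed (lowest adjusted p = 0.105, background 0.0%). At an unadjusted p under 0.05 that fit gave 416 members (37.9%, background 26.9%), of which 273 (24.9%, background 11.9%) were lower and 143 (13.0%, background 15.0%) higher.

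The median of the members lay slightly below 0 on the arrays that share a dye orientation. Median log2 ratios of the 1098 tested members were -0.27, -0.27 and 0.02 on arrays 1, 2 and 3, a mean of -0.17 ± 0.16 (SD, n = 3 arrays; exact two-sided sign-flip p = 0.50), or -0.18 with array 3 turned. Over all tested oligos the medians were 0.01, -0.02 and 0.01. Arrays 1 and 2 were low and array 3 was at 0. Against all 24369 other unnamed oligos the members' median differed by -0.30, -0.27 and 0.02 (mean -0.19 ± 0.17; exact sign-flip p = 0.50), which did not have 1 sign. Because sets differ in oligo design, the 10764 other unnamed Compugen oligos were compared as well, a choice made after the data were seen. Against these the differences were -0.25, -0.17 and -0.11 (mean -0.18 ± 0.07; exact sign-flip p = 0.25, the smallest 3 arrays allow). Compared within quartiles of intensity, they were -0.30, -0.23 and -0.07 (mean -0.20 ± 0.12). Members were lower than the other Compugen oligos on every array in this reading only. The mean difference with array 3 turned was -0.10 ± 0.19 (exact sign-flip p = 0.50), or -0.15 ± 0.20 within quartiles, smaller than its SD and with both signs. Against all other unnamed oligos it was then -0.20 ± 0.16, with 1 sign.

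Of the 8 libraries compared, the members differed most in median from an ovary library, whose clones include oocyte messages, but this rests on the direction of array 3. Members minus the 737 tested ovary oligos of the Compugen set differed by -0.29, -0.21 and -0.34 in median log2 ratio on arrays 1, 2 and 3 (mean -0.28 ± 0.07; exact sign-flip p = 0.25), and by -0.36, -0.24 and -0.31 within intensity quartiles (mean -0.30 ± 0.06). The mean differences with array 3 turned were -0.05 ± 0.34 and -0.10 ± 0.36, within the spread between arrays. Of the ovary oligos, 8.68% were below 0 and 27.0% above 0 on all 3 arrays, which is the reverse of the members' 32.2% and 15.5%. Turned, the ovary shares were 33.4% and 13.0%, near the members' 29.3% and 11.5%. Past 1 log2 unit on every array, 2 ovary oligos (0.271%) were lower and 20 (2.71%) higher. Libraries of adult tissues lay nearer to the members. The mean difference in median was -0.09 against brain, -0.06 against retina, -0.07 against olfactory tissue, -0.14 against kidney, -0.07 against fin and -0.10 against testis, each with 1 sign on the 3 arrays. Against a neuronal library it was -0.04 with both signs. The shares below and above 0 on all 3 arrays were 18.0% and 7.75% in the neuronal library and 21.0% and 10.8% in olfactory tissue. They were 20.0% and 12.4% in fin, 17.9% and 13.7% in retina, and 17.5% and 14.7% in testis. Brain had 15.3% and 15.0%, and kidney 14.9% and 16.8%. By this count the libraries other than ovary, brain and kidney also leaned low as read here, though none reached the members' 32.2%. Turned shares are given for the ovary library only. The shares in brain were nearly equal. At an unadjusted limma p under 0.05, testis did not lean low either (4.76% lower, 5.56% higher). Turned, the differences from these 7 libraries lay between -0.04 (neuronal) and 0.02 (brain). These library groups were named from words in the titles after the data were seen. Their intensity also differed from the members', with a median 0.90 log2 units lower for the ovary oligos.

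The spread among the members was narrower in brighter classes. The interquartile range (the width that holds the middle values of the distribution) of their log2 ratios was 0.93, 0.84 and 0.77 on arrays 1, 2 and 3, and the SD was 0.89, 0.91 and 0.86. For the other Compugen oligos, of which fewer were bright, the interquartile ranges were wider, at 1.10, 1.05 and 0.97. Classes of intensity were set by the quartiles of mean log2 intensity over all tested oligos, with bounds at 7.45, 8.50 and 9.69. From the dimmest to the brightest class they held 151, 231, 326 and 390 members, so 35.5% of the members were in the brightest. The interquartile ranges of the members were 1.70, 1.53 and 1.44 in the dimmest class, 0.93, 1.11 and 0.99 in the next, 0.87, 0.84 and 0.72 in the third, and 0.72, 0.65 and 0.61 in the brightest. The dimmest class was therefore the most spread on each array, and the brightest the least. Within the dimmest class the members had wider interquartile ranges than the other Compugen oligos, which had 1.54, 1.49 and 1.33. By the SD the order there was the reverse, at 1.22, 1.27 and 1.30 for the members and 1.32, 1.41 and 1.35 for the other Compugen oligos. In each brighter class the members were less spread than the other Compugen oligos on every array. There the other Compugen oligos had 1.23, 1.15 and 1.07, then 1.01, 0.98 and 0.94, and 0.75, 0.73 and 0.65 in the brightest. Against all tested oligos the order differed at both ends. These had 1.64, 1.70 and 1.51 in the dimmest class, so the members' interquartile range was wider on array 1 only. In the brightest they had 0.65, 0.61 and 0.57, below the members on every array. In the classes between, the members were less spread than all tested oligos too.

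Expressed as a log2 ratio, the range in the dimmest over that in the brightest class was 1.24, 1.23 and 1.25 (mean 1.24 ± 0.01; exact sign-flip p = 0.25), against 1.04, 1.02 and 1.03 for the other Compugen oligos and a mean of 1.41 for all oligos. That order depends on the background correction. With the local background added back the value became -0.91, so that bright members then spread more than dim ones, and the interquartile range of all members was 0.42. By construction, that setting moves the ratio of a dim spot towards the ratio of its backgrounds. With the requirement that both columns exceed 2 background SDs on all arrays, the value was 0.76.

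The downward median was not confined to dim members. Median log2 ratios on arrays 1, 2 and 3 were -0.53, -0.46 and 0.11 in the dimmest class, -0.43, -0.45 and 0.12 in the next, -0.25, -0.19 and 0.01 in the third, and -0.20, -0.23 and -0.01 in the brightest. The gap between the swapped array and the others narrowed with intensity. Members below 0 on all 3 arrays outnumbered those above 0 in each class, with 42 against 18, 70 against 33, 104 against 56, and 138 against 63 from dim to bright. The shares below 0 were 27.8%, 30.3%, 31.9% and 35.4%, against 11.0%, 15.7%, 20.4% and 23.3% of all tested oligos in the same classes. Above 0 they were 11.9%, 14.3%, 17.2% and 16.2%, against 11.1%, 16.1%, 19.6% and 21.2%. Both shares of all oligos thus rose with intensity. The counts with array 3 turned were 48 against 16, 81 against 16, 83 against 43, and 110 against 51. Backgrounds by class are not given for that reading. Over all classes 29.3% of members were then lower, against 24.8% of all oligos and 29.7% of the other Compugen oligos. The turned shares higher were 11.5%, 24.8% and 21.1%. The classes held 151, 231, 326 and 390 members. The 43 members lower by over 1 log2 unit on every array were spread as 7, 10, 12 and 14 over these classes. Their mean log2 ratios ran from -4.79 to -1.06 with a median of -1.90. The 9 that were higher by as much were spread as 1, 3, 3 and 2 over the classes, with means from 1.32 to 2.21 and a median of 1.72. A mean can be far from 0 and vary, as for BI889280 at -2.12, -4.94 and -1.46, or smaller and steady, as for BI888338 at -1.09, -1.07 and -1.04, 2 members chosen after their values were seen.

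The tails of the distribution differed by side. On arrays 1, 2 and 3, 15.4%, 16.8% and 8.74% of members were below -1, against 12.3%, 13.5% and 13.1% of the other Compugen oligos. Above 1 were 4.83%, 4.55% and 7.92% of members, against 15.9%, 14.1% and 13.5%. Of all tested oligos, 9.78%, 10.6% and 12.8% were below -1, and 14.8%, 13.8% and 8.97% were above 1. On array 3 the members' share above 1 was thus near that of all oligos. The shares were not matched for intensity, and the dimmest class held 13.8% of the members, against 30.2% of the other Compugen oligos. Against the other Compugen oligos the members' share above 1 was smaller on each array, by 8.73 ± 2.81 percentage points on average (exact sign-flip p = 0.25). The share below -1 was larger on arrays 1 and 2 and smaller on array 3. The share above 1 with array 3 turned was smaller by 8.30 ± 3.54 points, again on each array. The lowest ratios of any member were -5.22, -5.05 and -4.10 and the highest 3.33, 4.95 and 4.74.

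Arrays of opposite dye orientation related to each other differently in the members than in the other oligos. Across the 1098 members the ratios correlated at r = 0.85 between arrays 1 and 2, 0.19 between arrays 1 and 3, and 0.03 between arrays 2 and 3. Across the other Compugen oligos the values were 0.83, -0.39 and -0.50. In the brightest class of members they were 0.96, 0.45 and 0.40, with rank correlations (rho) of 0.95, 0.30 and 0.27. In the dimmest class of members r was 0.69, 0.07 and -0.21. The other Compugen oligos had r of 0.97, -0.40 and -0.46 in the brightest class and 0.72, -0.32 and -0.44 in the dimmest. All tested oligos had 0.95, -0.06 and -0.13 in the brightest class. These correlations run across oligos that share arrays and libraries and are given as descriptions. A mean that weights both orientations equally was more spread among the members (interquartile range 0.58) than the difference between orientations divided by 2 (0.47). In the other Compugen oligos the order was the reverse, at 0.55 and 0.69. The ovary library among them had the members' order, at 0.62 and 0.57, and the other libraries compared had the reverse.

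Reads of the library came in 4 series by clone name. The ZF637-1, ZF637-2 and ZF637-3 series gave 380, 381 and 289 tested members, and the zfshTARAMA series gave 47. The zfshTARAMA members had medians of -0.51, -0.50 and -0.14 on arrays 1, 2 and 3, each the lowest of the 4 series as read here, but turned the array 3 value (0.14) was the highest of the 4. Of these 47, 57.4% were below 0 on all 3 arrays and 2.13% above, or 27.7% and 4.26% with array 3 turned. In the ZF637 series the shares below 0 on all 3 were 27.1%, 34.4% and 31.8%, or 31.6%, 26.2% and 30.8% turned. The share below 0 was 17.6% of all tested oligos and 15.6% of the other Compugen oligos, or 24.8% and 29.7% turned. Above 0 these were 17.0% and 17.8%, or 24.8% and 21.1% turned. The turned shares of the series below 0 thus lay near that of the other Compugen oligos. Of the 362 tested members with a UniGene cluster (a group of sequences assigned to 1 gene), 30.9% were below 0 on all 3 arrays, and of the 736 without one 32.9% were.

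The member with the lowest mean was BI891773, whose EST has an Operon title of moderate similarity to the human KIAA0171 product. Its intensities on arrays 1, 2 and 3 were 172.9, 84.9 and 414.5 in the morphant column, against 20516, 8542 and 2634 in the control column. The normalized log2 ratios of BI891773 were -5.22, -5.05 and -4.10 (mean -4.79 ± 0.60, SD, n = 3; limma adjusted p = 0.282). The control column was far above the morphant column on each array. An Operon oligo on the same EST was dim (mean log2 intensity 6.26) and had log2 ratios of -1.95, -1.90 and -0.52 (mean -1.45 ± 0.81).

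BI889922 was low with oligos of both sets, at similar intensities. The EST is titled as moderately similar to human epiplakin, a large cytolinker protein of epithelia. Intensities of BI889922 were 1596, 716.2 and 1945 in the morphant column, against 27452, 14099 and 5639 in the control column. The log2 ratios were -2.28, -2.49 and -2.97 (mean -2.58 ± 0.35, n = 3; limma adjusted p = 0.282). The Operon oligo on this EST gave -1.81, -1.89 and -2.47 (mean -2.05 ± 0.36). Both oligos were low on all 3 arrays.

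The other 8 lower members picked by the smallest limma p among those of 1 sign on all arrays have no homologue title on the array. BI889130 was at -4.00 ± 0.83, with intensities of 239.2, 55.3 and 544.7 in the morphant column, against 10440, 4667 and 1971 in the control column. BI888210 was at -2.53 ± 0.37, BI704310 of the zfshTARAMA series at -2.45 ± 0.17, BI886431 at -2.44 ± 0.15 and BI888158 at -2.32 ± 0.37. BI892128 was at -2.14 ± 0.25, BI888232 at -1.70 ± 0.20 and BI887368 at -1.64 ± 0.16. All 10 lower members had the same lowest adjusted p of 0.282 in limma.

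The ratios of the higher members were smaller in size. BI888548 had intensities of 1483, 822.0 and 1899 in the morphant column, against 1046, 673.6 and 199.6 in the control column, and log2 ratios of 2.09, 1.86 and 1.83 (mean 1.93 ± 0.14; limma adjusted p = 0.282). An oligo of its UniGene cluster with a transketolase title, a sugar phosphate enzyme, was at 0.13 ± 0.13, so the 2 oligos of that cluster did not show the same ratio. Among the named higher members BI887224 had the closest arrays, with log2 ratios of 1.79, 1.81 and 1.76 (mean 1.78 ± 0.03) from intensities of 1051, 467.5 and 1335 in the morphant column, against 892.1, 358.9 and 148.6 in the control column. On arrays 1 and 2 its morphant column was only slightly above the control column, and the ratio is relative to an array trend on which the control column was the brighter one.

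The other higher members ran from 0.88 to 2.21. BI890123 was at 2.21 ± 0.44, the dim BI890855 at 2.07 ± 0.65, BI889489 at 1.41 ± 0.12 and BI889504 at 1.40 ± 0.06. The control intensities of BI890123 and BI890855 on array 3 were low, at 38.8 and 15.9. Neither was tested when both columns had to exceed background. Another oligo in the UniGene cluster of BI889489 was at 0.15 ± 0.69, with both signs over the arrays. BI890578 was at 1.38 ± 0.26, and an oligo of its UniGene cluster titled glyceraldehyde 3-phosphate dehydrogenase, a glycolytic enzyme, was at 0.73. BI885978 was at 1.32 ± 0.19, BI886702 at 1.01 ± 0.08 and BI886601 at 0.88 ± 0.08. On arrays 1 and 2 the control column was the brighter one for BI890578, BI885978, BI886702 and BI886601. For BI886601 it held 873.0 and 595.4, against 566.7 and 415.2 in the morphant column. The same held for BI889504 on array 1 and BI889489 on array 2. Their ratios are thus higher relative to the array trend. The limma adjusted p of the 10 ran from 0.282 to 0.297. With array 3 turned, the means of BI887224 and BI888548 were 0.61 and 0.71, those of BI889922 and BI891773 were -0.60 and -2.06, and all 20 members kept their sign. The choice by 1 sign on all arrays and a small p left little room for another outcome. The 10 lower members then lay between -2.06 and -0.47 and the 10 higher ones between 0.27 and 0.71.

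The 3 brightest members changed sign on the swapped array. BI889456, the brightest, had log2 ratios of 1.34 and 1.40 on arrays 1 and 2 and -0.98 on array 3. BI889937 had 1.20, 1.25 and -0.77, and the MWG oligo DRPTA19962 had 1.497, 1.452 and -0.953. Intensities of BI889456 and BI889937 lay between 52464 and 64813 in either column, where the highest red value on the arrays was 65164, and those of DRPTA19962 lay between 43587 and 48900. BI887548, the fourth brightest, had 0.68, -0.09 and -0.14.

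Another oligo on the same EST gave a measure that the choice of members did not use. Of 125 members with an Operon oligo titled by the same EST, 116 had both tested. Across these 116 ESTs the mean log2 ratios of the 2 oligos correlated at r = 0.65 (rho = 0.50), and at r = 0.57 without the 2 ESTs farthest from the median. On single arrays r was 0.51, 0.38 and 0.47. With array 3 turned r was 0.19. The mean with both orientations weighted equally correlated at r = 0.69, and the difference between orientations at r = 0.09. The median absolute difference between the 2 oligos was 0.15 in the mean over orientations and 0.26 in the difference between orientations divided by 2. The 73 pairs in which both oligos were bright had r = 0.77, and the other 43 had r = 0.58. Without the 2 ESTs farthest from the median in each group these were 0.67 and 0.29, so 2 ESTs carried much of the value for the dimmer pairs. ESTs are not independent replicates, so these values have no test.

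The paired oligos had 1 sign in 79 of 116 ESTs (68.1%), with 50 both below 0 and 29 both above, or 56 and 13 with array 3 turned. The median absolute difference was 0.19. Among 33 ESTs whose member was past 0.5 in either direction, the Operon oligo had the member's sign in 28. Oligos that share only a UniGene cluster with a member, 128 pairs over 95 members, correlated at r = 0.59, or 0.10 with array 3 turned, and had 1 sign in 93 pairs (72.7%).

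In 8 ESTs both oligos were lower by more than 0.5, and their titles name human proteins of similar sequence. Both oligos stayed below 0 in all 8 with array 3 turned. Besides the epiplakin and KIAA0171 titles, BI890108 is titled BAF53a, an actin-related subunit of a chromatin remodelling complex. It had log2 ratios of -1.25, -1.40 and -0.65 (mean -1.10 ± 0.40), and its Operon oligo had -1.20, -1.51 and -1.11 (mean -1.28 ± 0.21). A UniGene neighbour of BI890108 titled calreticulin, a chaperone of the endoplasmic reticulum, was at 0.91 ± 0.18, so the cluster and the title conflict for this EST. BI890241, titled FLJ11294, was at -0.99 ± 0.73 and -0.88 ± 0.65 with the member and the Operon oligo. BI886676, titled as the RNA helicase p72, was at -0.63 ± 0.40 and -0.57 ± 0.20. BI891001, titled DNA topoisomerase beta, an enzyme that untangles DNA strands, was at -1.17 ± 0.88 and -0.60 ± 0.68, and its Operon oligo was above 0 on array 3 (0.18).

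Ribosomal protein titles were all on the low side in the mean over arrays. BI887366, titled ribosomal protein L34, had log2 ratios of -0.84, -0.81 and -0.43 (mean -0.69 ± 0.23), and its Operon oligo was at -0.50 ± 0.27. BI890906, titled L28, was at -0.57 ± 0.43 and -0.64 ± 0.44. BI889445, titled S8, was at -0.35 ± 0.31 and -0.33 ± 0.08. Array 3 was the least low of the arrays for each oligo as read here. The member and the Operon oligo had -0.43 and -0.20 there for L34, and -0.08 and -0.13 for L28. They had 0.01 and -0.26 for S8. For BI892430, titled S11, these values were -0.38 and 0.50, and for BI890113, titled L4, both were -0.04. In all 5 ESTs of this kind both oligos had means below 0, with member means between -1.09 and -0.35. With array 3 turned the member means lay between -0.84 and -0.36, again with both oligos below 0 in all 5. Against this, 50 of the 116 ESTs had both below 0, or 56 turned. The grouping by title words was made after the values were seen, so it has no test.

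The other title groups were mixed or leaned to 1 side. Over all 116 ESTs, 50 had both oligos below 0 and 29 had both above, so a lean to the low side was common to the pairs. Among 13 ESTs titled as RNA-binding proteins, splicing factors or helicases, both oligos were below 0 in 8, both above in 2, and the signs split in 3 (median of the members -0.20). One of the 8, BI890779, is titled chromodomain helicase DNA binding protein 4, not an RNA helicase, and is counted again with the chromatin factors. For 11 titled as chromatin or transcription factors the counts were 4, 3 and 4. For 7 of the ubiquitin pathway and proteasome, among them titles of ubiquitin-like proteins, they were 4, 1 and 2. Of 9 grouped as small GTPases or vesicle coat and fusion proteins, 1 had both below 0, 3 had both above and 5 were split. The 1 below 0, BI891150 (-0.09 and -0.17), is titled ERD-2-like protein ELP-1. Among the split ESTs, BI891859 is titled RAN binding protein 9 and BI891770 VPS28 protein homolog. None of these titles names a small GTPase or a vesicle coat or fusion protein. Histones had 2 of 4 with both below 0 and 0 with both above, and cytoskeletal proteins had 2 of 5 with both below and 2 with both above.

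Both oligos were higher by more than 0.5 in another 8 ESTs. Turning array 3 left both above 0 in 5 of these and put both below 0 in 2. BI891723, titled testis-specific protein kinase 2, had log2 ratios of 1.72, 1.04 and 2.39 (mean 1.72 ± 0.68), and its Operon oligo had 1.56, 1.49 and 1.65 (mean 1.57 ± 0.08). BI892063, titled CpG binding protein, a chromatin factor, was at 0.88 ± 0.20 and 0.55 ± 0.02. BI888512, titled Rab-35, a GTPase of endosome traffic, was at 0.87 ± 0.17 and 0.78 ± 0.33. BI889549, titled sialic acid synthase, an enzyme of sugar metabolism, was at 0.83 ± 0.49 and 0.55 ± 0.19. BI890525, titled SAP102, was at 0.76 ± 0.61 and 0.55 ± 0.35, BI887230, titled HSPC037, at 0.68 ± 0.44 and 0.70 ± 0.15, and BI890115, titled KIAA0597, at 0.68 ± 0.07 and 0.50 ± 0.13. Array 3 alone carried the value of BI889151, titled Rab5, with -0.27, -1.06 and 2.98 for the member and -0.13, -0.42 and 2.07 for its Operon oligo.

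There are 5 members that share a UniGene cluster with an oligo that has a gene symbol. BI889609 had log2 ratios of -0.83, -0.79 and -0.57 (mean -0.73 ± 0.14), and the oligo in its cluster, titled keratin 8 and named krt4 in RefSeq, had -1.54, -1.51 and -1.49 (mean -1.51 ± 0.03). Both were below 0 on every array. krt4 encodes a type II keratin of the outer layer of the early embryo. BI889445 shares a cluster with an oligo for rack1, a ribosome-bound scaffold protein, which is another protein than its S8 title names. The rack1 oligo had 0.95, 0.99 and -0.98 (mean 0.32 ± 1.13), against -0.35 for BI889445. BI887812 was at -0.24 ± 0.25, whereas the oligo in its cluster for rrm2l, a ribonucleotide reductase gene, was at 0.33 ± 0.24. BI891654, in the cluster of baxa, a gene of the cell death pathway, had -1.49, -0.54 and 2.95, and the 2 bax oligos of the cluster were at 0.25 ± 1.05 and 0.18 ± 0.20. With BI890108 and calreticulin, 3 of the 5 members thus had a mean of the opposite sign to the named oligo.

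Some clusters without a symbol carry a homologue title, and those given here were chosen after their values were seen. Over all UniGene pairs, 44 had a member past 0.5 in either direction, and the partner had the member's sign in 37. Sharing a sign did not mean a similar size. BI887338 was at -2.09 ± 0.37 and its partner with a polyglutamine repeat title at -0.31 ± 0.39. BI890446 was at -1.07 ± 0.24, against -0.25 ± 0.15 for a partner titled protein arginine methyltransferase 1. In another pair the means did not share a sign, with BI891681 at -0.68 ± 0.36 and a partner with a 14-3-3 title at 0.03 ± 1.77. BI890287 was at -1.13 ± 0.74, and its cluster partner titled periplakin, a relative of epiplakin that links keratin filaments to junctions, was at -0.98 ± 0.27. BI890216 was at -0.68 ± 0.36, and its 2 cluster partners titled hepatocyte nuclear factor 4, a nuclear receptor, were at -1.42 ± 0.45 and -1.28 ± 0.93. BI888569 was at 1.34 ± 0.97, and cluster partners titled as the a3 subunit of the vacuolar proton pump were at 1.28 ± 0.13 and 0.25 ± 0.14.

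The single Operon member, AF533659, is the sequence titled embryonic shield mRNA. Its log2 ratios were -0.953, -0.997 and -1.056 (mean -1.002 ± 0.052; limma unadjusted p = 0.00445, adjusted p = 0.286), so it was lower by a similar amount on each array and did not pass. Its mean with array 3 turned was -0.30 ± 1.17. For comparison, 16 of 20 symbols on a list of organizer and shield genes were measured, by 31 oligos. Their medians were -0.43, -0.27 and -0.28 on arrays 1, 2 and 3. Of these 16, counted by gene, 6 were below 0 and 1 above 0 on all 3 arrays. Among all tested oligos, counted singly and so in another unit, 17.6% and 17.0% were. The counts became 3 and 2 with array 3 turned. The list was chosen with earlier results of these arrays known.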

How the data were processed

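Intensities of 3 two-colour arrays, each with 1 pool per group, were analysed. Per the file headers, the tables hold red and green mean intensity, local background, a ratio and a quality score. The authors deposited intensities already background-subtracted (mean equals total over area minus background at 100% of spots). Their ratio is red over green divided by an array constant (2.8186, 2.7008 and 0.3985). The log2 matrix deposited by the authors is that ratio on the log2 scale with its sign turned (35328, 35328 and 35327 of 35328 values agree within 0.01), with medians of -0.02, 0.00 and 0.00, and has no intensity correction. Per the labels' protocols, total RNA was reverse transcribed with aminoallyl nucleotides, whereas the design text speaks of amplified RNA. The scanner software is not given in the sources used here.

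Log2 green over red was normalized by loess (span 0.3, 4 iterations) within each array, with control and poor spots given no weight. Spots with a quality score of 0 were left out, and repeat spots of an oligo were averaged. Testing required usable spots on all 3 arrays and a signal over 2 background SDs, in 1 column or both, on 2 arrays or more. This filter on intensity removed no member. limma 3.58.1 in R 4.3.3 (lmFit, eBayes) was fitted to all tested oligos, with Benjamini-Hochberg adjustment, a threshold of 0.05 and no dye term, so 1 swapped array of 3 does not cancel dye effects. The script was tested on simulated data. Medians and spreads were compared over arrays with an exact two-sided sign-flip test, which cannot go below 0.25. Summaries used Python 3.11.15 with pandas 2.3.3.

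Members and lists were chosen with earlier results of these data known. Named members are 10 per direction by the smallest p with 1 sign on all 3 arrays, the 4 brightest, those with repeat spots, and those sharing a UniGene cluster with a symbol. Pairs and title groups were chosen after their values were seen. Alternatives covered background, normalization, filters, direction of array 3, dye term, test, intensity classes and leaving out each array. Genome positions and oligo sequences were not used here.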

Additional observations from a re-analysis of the deposited data

How the results depend on the processing

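Of the 20 members named by p, all kept their direction under the alternatives that tested them. BI890123 and BI890855 were not tested when both columns had to exceed background. The 20 were picked for 1 sign on all 3 arrays and a small p, so leaving out an array could not change their direction. Turning array 3 could change it only where array 3 outweighed arrays 1 and 2 together. Each of the 20 passed an adjusted p under 0.05 in limma only without array 3. Counts past the threshold were 0 for members and for all oligos except with array 3 turned (41 and 2496) and when arrays were left out (0 to 269 and 0 to 5950). The median log2 ratio of the members ran from -0.27 to -0.12 when 1 array was left out, and their difference from the other unnamed oligos from -0.29 to -0.13. With a dye term these were -0.11 and -0.11. The interquartile range of the members was 0.76 with loess within print-tip blocks, 0.42 with the background added back and 0.75 with normexp, against 0.84. The log2 ratio of dim over bright spread, 1.24 as reported, was 1.41 with median centring, 1.10 with print-tip loess, -0.91 with the background added back, 0.78 with normexp, 0.76 with both columns above background, 1.45 with poor spots kept and 1.41 with the deposited log2 values. It was 1.13 with classes of equal width, 1.35 with each array's own intensity and 0.84 with the SD. The cause of these shifts was not tested. No paired analysis was possible because each array already holds 1 morphant and 1 control pool, and the ratio is the pair. Results that rest on 1 sign over all arrays depend on how array 3 is read, as the turned values show. The 3 arrays limit the precision.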

Other observations

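Members with repeat spots were BI704177 and BI888084. The 2 spots of BI704177 had log2 ratios of -0.20, -0.39 and -0.67, and of -0.46, -0.45 and -0.28, on arrays 1, 2 and 3. One spot of BI888084 had 0.30, 0.34 and 0.25, and the other was usable on array 1 alone, at -0.03. The 1185 Compugen members lay on 40 plates, with 17 to 51 on each.

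Among oligos sharing a UniGene cluster with a member, the one for a type II cytokeratin in the cluster of BI891769 changed sign with the dye swap, at 3.61, 3.52 and -3.23, whereas BI891769 itself had -0.85, -0.05 and 0.14.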
